A study of Mus musculus with 6 samples.

Results

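Hepatic uptake transporters of the Slc22 and Slco families were followed across fed and fasted mouse liver. The set was drawn up as 9 genes: Slc22a3, Slc22a7, Slc22a18, Slc22a23, Slco1a1, Slco1a4, Slco1b2, Slco2a1 and Slco2b1. A gene was taken where the array annotation pairs a probe set with that gene and no other, which held for 8 of the 9 and for 19 probe sets. Slc22a3 is not analysed here. These 8 stand among 18193 genes measured on the arrays, and each is represented by its brightest probe set over the 6 arrays, with its other probe sets given beside it.

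Livers came from male C57BL/6J mice aged 8 weeks, with 1 Affymetrix array for each liver sample and 2 biological replicates in each of 3 groups. The first group was wild-type and fed normal chow, the second was wild-type and deprived of food for 24 h, and the third was labelled Cnot3+/- and deprived of food for the same time. The Cnot3 protein belongs to the CCR4-NOT complex, which removes poly(A) tails from mRNAs. No fed Cnot3+/- livers were analysed here, so genotype is compared in the fasted state only, and the labels do not describe the Cnot3 allele. Values are log2 levels made by RMA, so a difference of 1 is a doubling, and the small number of arrays, 2 for each group, bounds how precise any value can be.

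Members of the SLC22 family carry organic anions, organic cations and zwitterions, and the SLCO genes encode the organic anion transporting polypeptides. In hepatocytes they sit mainly in the sinusoidal membrane, facing the blood, where they take up bile acids, steroid conjugates, thyroid hormones, bilirubin and many drugs for metabolism and biliary excretion. Several of them are known to be set by hepatocyte transcription factors, bile acid and xenobiotic receptors, and the sex-specific pattern of growth hormone.

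Of the 8 genes, 3 are neighbours on chromosome 6. In the RefSeq annotation of GRCm38.p6 the protein-coding genes run in the order Slco1c1, Slco1b2, Gm5724, Slco1a4, Slco1a1, Gm6614, Slco1a6, Slco1a5. The 250 bases before the annotated start of each of the 3 neighbours are printed. These genes lie in one cluster, and the fasting difference of Slco1a1 was far from those of Slco1a4 and Slco1b2. The windows, from RefSeq on GRCm38.p6, are chr6:141946963-141947212 on the minus strand for Slco1a1, chr6:141856221-141856470 on the minus strand for Slco1a4, and chr6:141629268-141629517 on the plus strand for Slco1b2. Capitals mark matches on either strand to any of 4 motifs. These are part of an HNF1 site (GTTAAT), part of a nuclear receptor site (AGGTCA), a FoxO site (TGTTTAC) and a STAT site (TTCNNNGAA).
Slco1a1: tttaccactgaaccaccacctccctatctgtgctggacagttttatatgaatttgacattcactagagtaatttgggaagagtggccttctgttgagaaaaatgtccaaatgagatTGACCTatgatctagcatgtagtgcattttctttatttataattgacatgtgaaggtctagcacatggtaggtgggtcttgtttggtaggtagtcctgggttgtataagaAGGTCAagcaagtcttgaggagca
Slco1a4: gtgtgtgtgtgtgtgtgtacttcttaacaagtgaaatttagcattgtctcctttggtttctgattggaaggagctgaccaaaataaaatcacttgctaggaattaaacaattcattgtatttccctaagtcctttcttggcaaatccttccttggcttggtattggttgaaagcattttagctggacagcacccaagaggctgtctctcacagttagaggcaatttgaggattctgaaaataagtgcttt
Slco1b2: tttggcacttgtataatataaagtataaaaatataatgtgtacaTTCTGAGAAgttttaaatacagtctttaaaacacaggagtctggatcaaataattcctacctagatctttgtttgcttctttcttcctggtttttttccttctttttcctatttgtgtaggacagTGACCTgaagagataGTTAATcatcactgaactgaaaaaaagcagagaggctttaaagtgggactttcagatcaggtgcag
The Slco1a1 window holds the nuclear receptor motif at 2 places. The Slco1b2 window holds 1 match each to the nuclear receptor, HNF1 and STAT motifs, and the Slco1a4 window holds none of the 4 motifs. Among 32851 promoter windows of the same length, 14.0% hold the nuclear receptor motif, 7.02% the STAT motif, 6.43% the HNF1 motif and 3.17% the FoxO motif. The marked letters do not overlap each other, and a match describes the letters, not a bound site.

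Before the transporters, the gene named in the genotype and the tissue label were checked. In fasted liver Cnot3 read 9.27 and 9.32 in wild-type mice and 9.40 and 9.16 in those labelled Cnot3+/-, a log2 difference of -0.01 (SE 0.13, 95% confidence interval -0.33 to 0.30), so the genotype rests on the labels alone. All 9 measured hepatocyte markers of the 10 on the list lay above the array medians in every group, and none of them passed the fasting test (median log2 difference 0.06). The kidney tubule list, chosen because kidney also uses many of these transporters, had 4 of 5 genes at or under the array medians in fed and in fasted wild-type liver and 5 of 5 in fasted Cnot3+/- liver. Macrophage and Kupffer cell markers had positive fasting differences in 10 of 10 cases, with none past the test, and their summed linear level ran from 5317 to 6699 in fed wild-type, 7533 to 8199 in fasted wild-type and 9175 to 12719 in fasted Cnot3+/- liver. Of these 10, 6 rose in fasted Cnot3+/- against fed liver, where 3.88% of all genes were called higher. Between the fasted genotypes 10 of 10 had positive differences, none past the test. Of 9 stellate cell and fibroblast markers, 3 fell and 1 rose after fasting, with 7 negative and 2 positive differences (median -0.46). In the fasting comparison 3.15% of all genes were called lower and 1.87% higher. The levels of these 9 markers follow. Their mean log2 level was 8.15 to 8.18 fed, 7.60 to 7.61 in fasted wild-type and 7.55 to 7.89 in fasted Cnot3+/- liver. Summed levels were 5123 to 5400 fed, 5314 to 5681 in fasted wild-type and 5134 to 6541 in fasted Cnot3+/- liver. These sums weigh bright genes most, and the brightest, Dcn, was the one that rose. Col1a1, 1 of the 3 that fell, lay under the array medians in each group. The 4 measured exocrine pancreas markers, 2 of them at or under the array medians in each group, had 2 positive and 2 negative fasting differences (median 0.04). Of these 4, Cela1 alone passed the test, at -1.45, and was named after its values were seen. The 3 measured erythroid markers, again with 2 at or under the medians, had 1 positive and 2 negative fasting differences (median -0.03), none past the test. The part of these marker changes in the transporter values was not tested. In whole liver, fewer cells of a type and less RNA per cell cannot be told apart.

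After fasting, 2 of the 8 uptake transporters fell in wild-type liver, Slc22a7 and Slco1a1. Slc22a7, the organic anion transporter OAT2, fell to 0.0864 of its fed level and Slco1a1, the bile acid and steroid conjugate carrier Oatp1a1, to 0.231. None of the 8 rose, and 6 did not pass the test in limma with Benjamini-Hochberg adjustment over all genes. Across all genes tested, 3.15% were called lower and 1.87% higher after fasting. The median log2 difference was -0.29 over the 8 transporters and 0.02 over all genes.

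**Figure D1:**
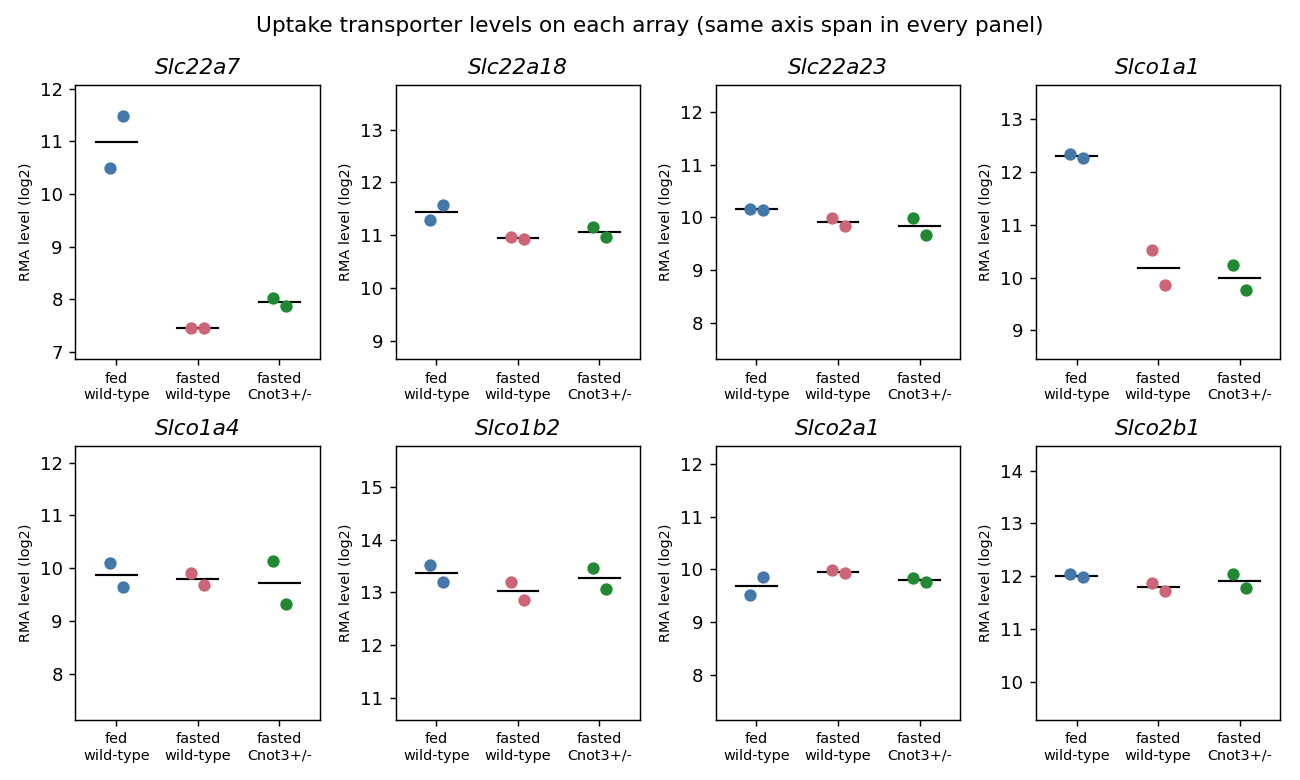
RMA log2 level of each transporter gene (1 panel per gene) on the 6 arrays, grouped by feeding and genotype, with a bar at each group's mean of 2 arrays; every panel spans the same number of log2 units. The fasted arrays lie far below the fed arrays for Slc22a7 (fed 10.50 and 11.48) and Slco1a1 (fed 12.34 and 12.26), while the fasting differences of the other 6 genes are at most 0.49 in size.

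Among the SLC22 genes, Slc22a7 read 10.50 and 11.48 in fed wild-type liver. It read 7.46 and 7.46 in fasted wild-type and 8.04 and 7.87 in fasted Cnot3+/- liver. The fed arrays lay highest, the Cnot3+/- arrays next and the fasted wild-type arrays lowest, with no overlap between any of the groups. The group means, each ± SD with n = 2, were 10.99 ± 0.70 fed and 7.46 ± 0.0036 fasted, so the log2 difference was -3.53 (limma SE 0.28, adjusted p = 0.00254). The fed arrays were 0.98 apart, the widest gap between replicates among the 8 genes, and the difference ran from -4.02 to -3.04 when single arrays were left out, past the test each time. Slc22a7 has a single probe set, whose suffix marks it as shared between transcripts, so no second probe set bears on this value.

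Slc22a18, an imprinted gene on chromosome 7 that encodes a transporter-like protein, read 11.29 and 11.57 in fed wild-type, 10.96 and 10.92 in fasted wild-type, and 11.15 and 10.96 in fasted Cnot3+/- liver. Both fasted groups lay under the fed arrays, but the log2 difference of -0.49 for fasted against fed wild-type did not pass (SE 0.14, unadjusted p = 0.0103, limma adjusted p = 0.11). Its second probe set differed by -0.20 (adjusted p = 0.538 over all probe sets). Slc22a23, whose substrate is not established, read 10.15 and 10.15 in fed wild-type, 9.98 and 9.84 in fasted wild-type, and 9.99 and 9.67 in fasted Cnot3+/- liver. The fed arrays were again above all fasted arrays, by a log2 difference of -0.24 in wild-type liver that did not pass (SE 0.14, limma adjusted p = 0.444).

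In the Slco1 cluster, Slco1a1 read 12.34 and 12.26 in fed wild-type liver. It read 10.52 and 9.85 in fasted wild-type and 10.23 and 9.76 in fasted Cnot3+/- liver. Fed and fasted arrays did not overlap, while the fasted groups overlapped each other. Oatp1a1 is known as a male-biased carrier of mouse liver. Its group means, each ± SD with n = 2, were 12.30 ± 0.06 fed and 10.19 ± 0.47 fasted, so the log2 difference was -2.12 (limma SE 0.24, adjusted p = 0.00586), and it stayed past the test with each single array left out in turn, at -2.45 to -1.78. The second probe set of Slco1a1 read 11.62 and 11.17 fed, 9.39 and 8.81 in fasted wild-type, and 8.54 and 8.63 in fasted Cnot3+/- liver, a fasting difference of -2.30 (SE 0.23, adjusted p = 0.00843 over all probe sets).

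Slco1a4, which encodes Oatp1a4, a carrier of cardiac glycosides and bile acids, read 10.09 and 9.65 in fed wild-type, 9.91 and 9.68 in fasted wild-type, and 10.13 and 9.31 in fasted Cnot3+/- liver. All 3 groups overlapped, and the fasting difference of -0.07 (SE 0.28, limma adjusted p = 0.928) had a 95% confidence interval from -0.72 to 0.57. Slco1b2, the liver-specific Oatp1b2 that takes up bilirubin, statins and the toxin phalloidin, read 13.52 and 13.20 in fed wild-type, 13.19 and 12.85 in fasted wild-type, and 13.47 and 13.06 in fasted Cnot3+/- liver. Its lower fed array and its higher fasted wild-type array were nearly level, and the log2 difference of -0.34 did not pass (SE 0.20, limma adjusted p = 0.424, interval -0.80 to 0.12). Intervals of this width do not show that either gene stayed level.

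Slco1a1 was also set against its neighbours within each array. The log2 gap of Slco1a1 to Slco1a4 was 2.25 and 2.62 on the fed arrays, 0.61 and 0.17 in fasted wild-type liver, and 0.10 and 0.45 in fasted Cnot3+/- liver. The gap to Slco1b2 was -1.17 and -0.94 on the fed arrays, -2.67 and -2.99 in fasted wild-type liver, and -3.23 and -3.30 in fasted Cnot3+/- liver. These gaps mix probe responses, so only their change can be read: -2.04 and -1.78 in wild-type liver, each with an exact two-sided permutation p = 0.333, the smallest that 2 arrays against 2 allow. The other genes of the cluster on the arrays, Slco1c1, Slco1a5 and Slco1a6, had mean levels under the array medians in every group and were not shown to be above background.

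Outside the cluster, Slco2a1 encodes the prostaglandin transporter. It read 9.51 and 9.85 in fed wild-type, 9.98 and 9.92 in fasted wild-type, and 9.84 and 9.76 in fasted Cnot3+/- liver. It was the single member with a positive fasting difference, 0.27 (SE 0.15, limma adjusted p = 0.374), which did not pass. Because vascular endothelium is a known site of this carrier, the endothelial list was set beside it. Of 10 markers, 7 had positive fasting differences, 1 of them past the test (Lyve1, log2 1.58), against 1.87% of all genes called higher. The summed linear level of the 10 markers was 3621 to 3689 fed, 4066 to 4232 in fasted wild-type and 3659 to 4133 in fasted Cnot3+/- liver. Their part in the Slco2a1 value was not tested. Slco2b1, whose product Oatp2b1 carries steroid sulfates in many tissues, read 12.03 and 11.99 in fed wild-type, 11.87 and 11.71 in fasted wild-type, and 12.04 and 11.77 in fasted Cnot3+/- liver. Both fasted wild-type arrays lay under the fed arrays, with a log2 difference of -0.22 that did not pass (SE 0.14, limma adjusted p = 0.468).

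The fed and fasted wild-type arrays did not overlap for 7 of the 8 transporters, with 6 lower and 1 higher after fasting. Over all genes 50.8% did not overlap in this comparison, 23.7% lower and 27.1% higher; no test of the list was made.

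**Figure D2:**
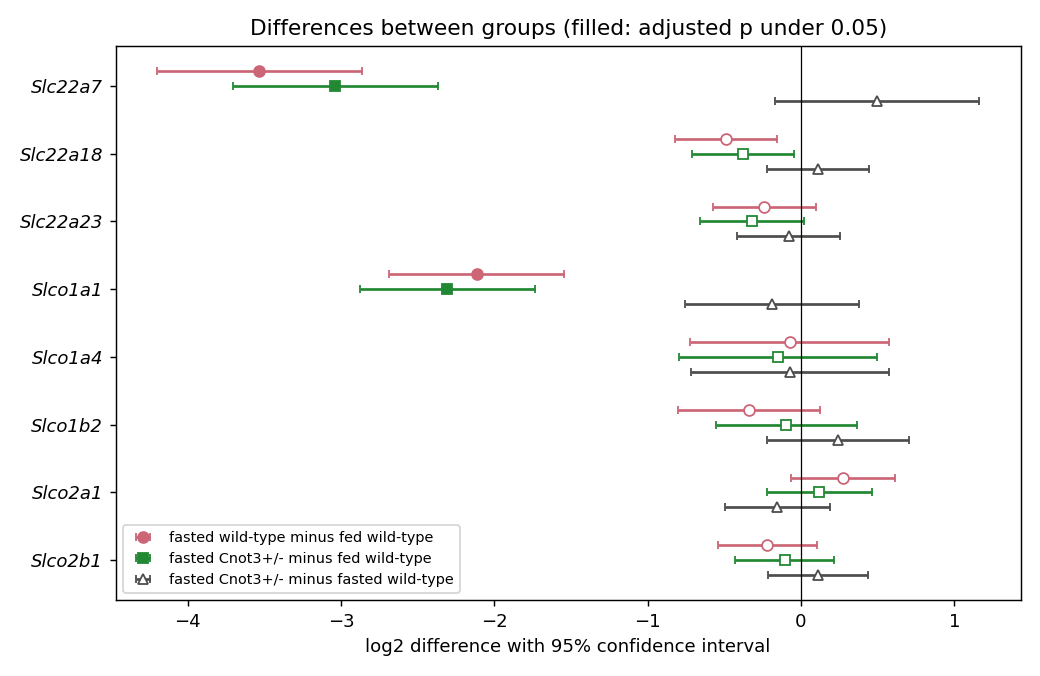
Log2 difference (x axis) with its 95% confidence interval for each transporter gene in 3 comparisons: fasted wild-type minus fed wild-type, fasted Cnot3+/- minus fed wild-type, and fasted Cnot3+/- minus fasted wild-type. Filled symbols, past an adjusted p of 0.05, occur for Slc22a7 (-3.53 and -3.04) and Slco1a1 (-2.12 and -2.31) against fed liver. All genotype intervals, taken from the fit that pools all groups, cross 0.

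The genotype comparison asks whether the Cnot3+/- label goes with different transporter levels in fasted liver. None of the 8 genes passed: limma called 0 of 8 and 0% of all 18193 genes, and at an unadjusted p under 0.05 it was 0 of 8 and 1011 of all genes. Slc22a7 had the smallest p, with 0.50 on the log2 scale (SE 0.28, unadjusted p = 0.123, limma adjusted p = 0.865). This SE pools all groups, so the unadjusted p and the interval depend on the wide spread of the fed arrays (SD 0.70). With only the fasted groups fitted, the same difference of 0.50 had an SE of 0.13 and still did not pass after adjustment (limma adjusted p = 0.872). The unadjusted p and the interval of that fit are not given here. The unadjusted count of 0 of 8 and the interval crossing 0 are therefore shown for the pooled fit only. Both Cnot3+/- arrays of Slc22a7 were above both fasted wild-type arrays. The 95% confidence interval of the pooled fit, -0.17 to 1.16, reaches from 0.888-fold to 2.24-fold. Slco2a1 was the other gene whose groups did not overlap, lower on the Cnot3+/- arrays at -0.15 on the log2 scale (limma SE 0.15, adjusted p = 0.899). The share of genes that did not overlap in this comparison was 36% over all genes, against these 2 of 8.

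For the other members the genotype differences were 0.11 for Slc22a18, -0.08 for Slc22a23 and -0.19 for Slco1a1. They were -0.07 for Slco1a4, 0.24 for Slco1b2 and 0.11 for Slco2b1. Limma adjusted p ran from 0.879 to 0.98 over these members. On the second probe set of Slco1a1 the difference was -0.51 (SE 0.23, limma adjusted p = 0.814 over all probe sets). There both Cnot3+/- arrays lay under both fasted wild-type arrays. The 95% confidence interval for the brightest Slco1a1 probe set ran from 0.591-fold to 1.30-fold. This interval is not a limit of detection, because calls are adjusted over all genes and larger differences can go uncalled. The smallest adjusted p of any gene between genotypes was 0.0963 (limma). The first Cnot3+/- array stood apart on a measure of RNA quality, the log2 gap from the 5' to the 3' beta-actin control probe set, at 1.06 against 0.43 to 0.62 on the other 5 arrays. The same gap was also widest on this array for Gapdh, at 0.31 against -0.14 to 0.06, and for pyruvate carboxylase, at 4.12 against 1.87 to 3.29, but for the transferrin receptor it was 2.12, inside the 1.74 to 2.24 of the others. Slco1a4 differed most between the Cnot3+/- arrays, by 0.82; its genotype difference was -0.48 without the first of them and 0.34 without the second, and the part of RNA quality was not tested.

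Fasted Cnot3+/- liver was also set against the same fed wild-type arrays, so these values share their controls with the fasting comparison. Slc22a7 was lower, at -3.04 on the log2 scale (limma SE 0.28, adjusted p = 0.00254) and Slco1a1 at -2.31 (limma SE 0.24, adjusted p = 0.00329), and the other 6 did not pass. In this comparison 3.68% of all genes were called lower and 3.88% higher. Side by side, the wild-type and Cnot3+/- differences from fed liver were -0.49 and -0.38 for Slc22a18, -0.24 and -0.32 for Slc22a23, -0.07 and -0.15 for Slco1a4, -0.34 and -0.09 for Slco1b2, 0.27 and 0.12 for Slco2a1, and -0.22 and -0.11 for Slco2b1.

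Probe sets of a gene did not always move together. Of the 19 probe sets, 3 were called in the fasting comparison over all single-gene probe sets, all lower, against 1.66% called lower over the whole table; they were the probe set of Slc22a7 and both of Slco1a1. The 3 probe sets of Slco2b1 gave negative fasting differences, from -0.23 to -0.06. The smallest of these, -0.06, came from a probe set with a mean level of 5.65, near the array medians. Of the 5 for Slco1b2, 2 were negative, at -0.34 and -0.15, and 3 positive, none past the test. The dimmest 2 of the 5, both positive, lay under the array medians on all 6 arrays. The remaining positive one was bright, with a mean level of 10.66, and differed by 0.36, opposite to the brightest. The 4 for Slco2a1 split into 2 positive, at 0.27 and 0.54, and 2 negative, at -0.18 and -0.19, none past the test. Mean levels were 9.81 and 8.91 for the positive ones. The negative ones were dimmer, at 6.61 and 5.72, the latter near the highest array median of 5.64.

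**Figure D3:**
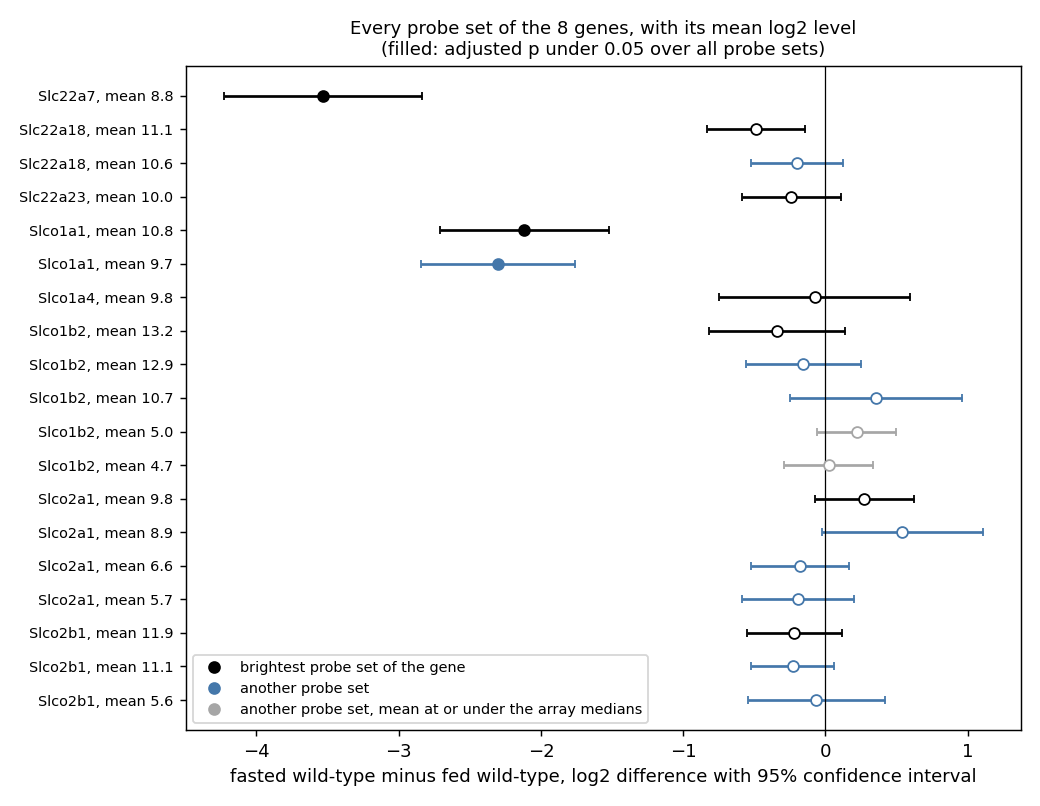
Fasting difference in wild-type liver (log2, x axis) with its 95% confidence interval for each of the 19 probe sets, ordered by gene and labelled with the mean log2 level over 6 arrays. The filled points of Slc22a7 (-3.53) and Slco1a1 (-2.12 and -2.30) stand apart from the other 16 probe sets, which lie between -0.49 and 0.54.

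The rest of both families was read from a list made of every other Slc22a and Slco gene on the arrays. Of 28 such genes, 1 rose and 3 fell after fasting and 24 did not pass. Over all genes 1.87% were called higher and 3.15% lower. The median log2 difference was -0.02 against 0.02 over all genes, and 11 of the 28 had a mean level above the array medians. The gene that rose was Slc22a5, the carnitine transporter OCTN2, with means (± SD, n = 2) of 8.92 ± 0.01 and 11.33 ± 0.06, a difference of 2.40 (SE 0.13). Slc22a30, a member of the organic anion branch, went from 12.20 ± 0.03 to 9.10 ± 0.13, a log2 difference of -3.10 (limma SE 0.21, adjusted p = 0.00131). Slc22a27 and Slc22a29 were also called lower, but they lay under the array medians in fed and in fasted liver, and their probe sets are marked as able to bind related sequences, so their values are uncertain. Slc22a29 is named to complete the count. No gene of this list was called between the fasted genotypes.

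**Figure D4:**
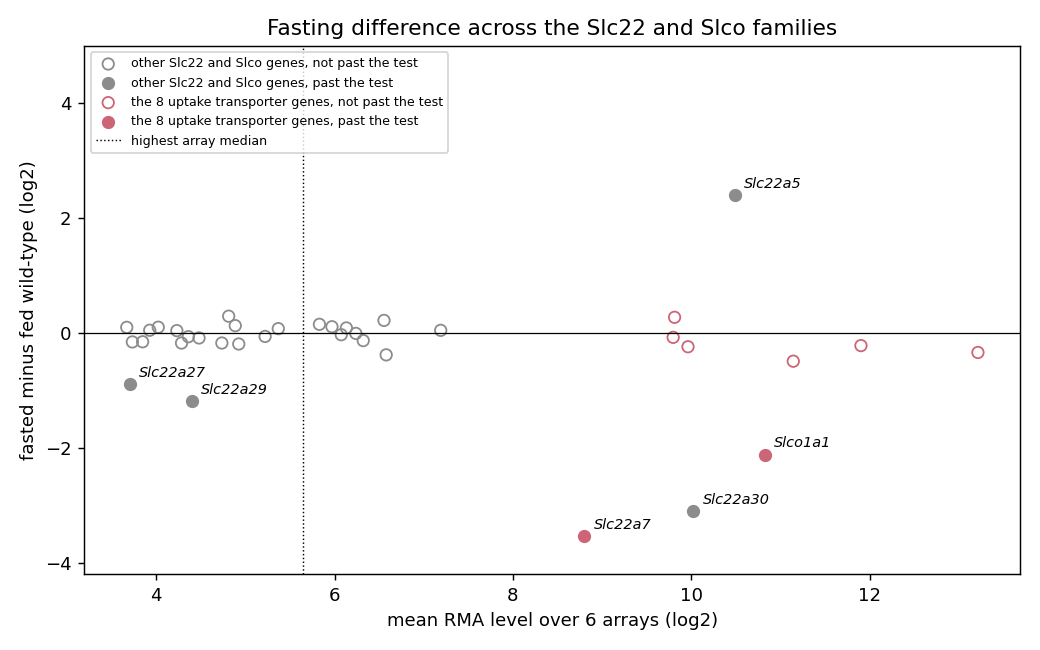
Fasting difference in wild-type liver (log2, y axis) against the mean RMA log2 level over 6 arrays (x axis) for the 8 uptake transporter genes and the 28 other Slc22 and Slco genes, with genes past the test filled and named. Slc22a7, Slc22a30 and Slco1a1 fell and Slc22a5 rose among the genes brighter than the array medians (dotted line).

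Other carriers that load or empty the hepatocyte were measured for 17 of 18 genes on a list. After fasting 5 fell and 1 rose, with a median log2 difference of -0.55 against 0.02 over all genes. The shares called over all genes were 3.15% lower and 1.87% higher. The bile salt export pump Abcb11 fell by 1.34 (SE 0.18) and the phospholipid flippase Abcb4 rose by 0.86 (SE 0.12), while Slc10a2, the ileal-type bile acid carrier, was lower, at -1.22 on the log2 scale, a bound because its fasted level lies under the array medians. The other 3 that fell were Abcb1a, Slc51b and Atp8b1, named after their values were seen because they complete the count. Slc10a1, the sodium-dependent bile acid carrier of the sinusoidal membrane, was also looked up after its values were seen and differed by 0.07 (limma adjusted p = 0.859).

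Of 23 transcription factors and receptors known to act on such transporter genes, 22 were measured, and 3 fell and 2 rose after fasting. Over all genes 3.15% were called lower and 1.87% higher. The median log2 difference was 0.05 against 0.02 over all genes. Nr1i3, the constitutive androstane receptor, rose by 0.86 (SE 0.12), and Nr0b2, the bile acid-induced repressor SHP, rose by 1.07 (SE 0.16). Ghr, the growth hormone receptor, fell by 0.96 (SE 0.16). The other 2 that fell were Foxa2 and Nr3c1, again named to complete the count. None of the 22 was called between the fasted genotypes.

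Genes with a profile like that of Slc22a7, the member with the largest fasting difference, were sought over the 6 arrays among the 9095 other genes brighter than the median gene. Likeness was the root mean square gap between log2 profiles, each centred on its own mean. The nearest was Fasn, fatty acid synthase, at 0.33, followed by Mid1ip1, which encodes an activator of acetyl-CoA carboxylase, at 0.37. Aacs, acetoacetyl-CoA synthetase, stood at 0.45, Thrsp, the lipogenic protein Spot 14, at 0.46, and Slc22a30 at 0.46. Mid1ip1 and Aacs were also lower on the first fed array than on the second, by 11.00 against 12.16 and 9.66 against 11.22, as Slc22a7 was. On the fasted arrays the centred values of Slc22a7 were higher in the Cnot3+/- group than in the wild-type group, and those of Mid1ip1 were lower. This is a description over 6 arrays that share a large step between fed and fasted liver, and carries no test.

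**Figure D5:**
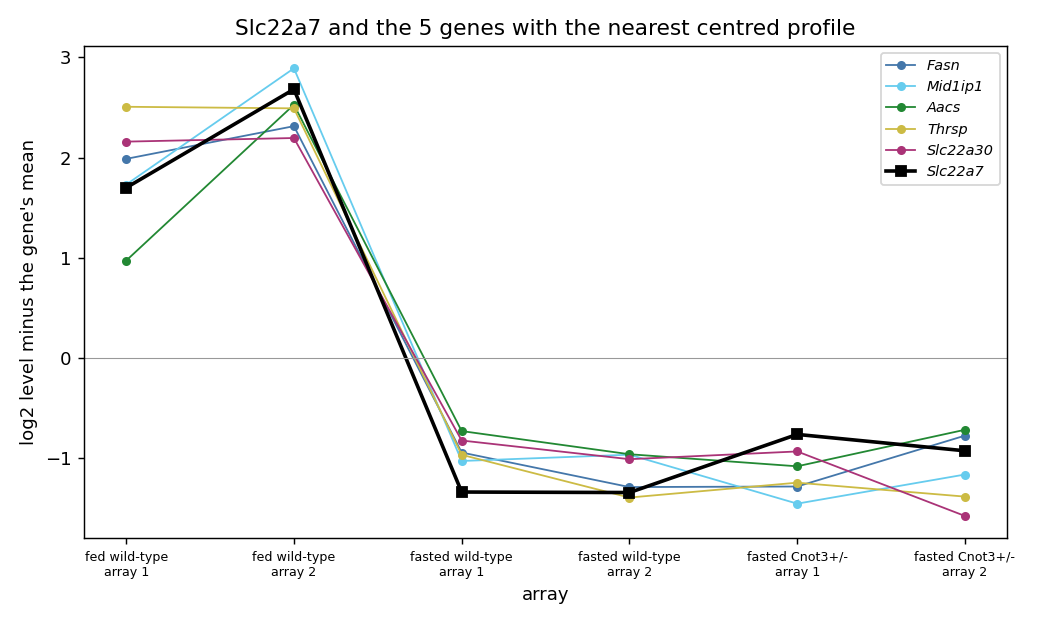
Log2 level minus the gene's own mean (y axis) on each of the 6 arrays (x axis) for Slc22a7 and the 5 genes nearest to it; lines join the points of a gene and imply no order of replicates. All 6 genes are lower on every fasted array than on either fed array, and the fed arrays of Slc22a7, Mid1ip1 and Aacs lie apart.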

How the data were processed

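Liver RNA was extracted with ISOGEN and RNeasy and labelled as biotinylated cRNA from 10 ug of total RNA, per the labels' protocols. The values are log2 levels that the authors deposited after RMA, named without a version in the submitters' processing notes, and were used without further normalization; scanner files and scan dates were not used. Array medians lay between 5.59 and 5.64. Levels at or under these medians may be background, and differences that involve them are bounds.

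Of 45101 probe sets, 34945 non-control ones name 1 gene in GEO's platform annotation, 932 listed probe sets name several and 9211 are unlisted; 18145 of 18193 genes were found in RefSeq by symbol, and 7 of the 8 transporters had a promoter window. The 3 group means were fitted to the 6 arrays together with limma 3.58.1 (R 4.3.3; lmFit, eBayes), which gave 3 residual and 4.24 prior degrees of freedom. P values were adjusted over all genes by Benjamini-Hochberg, calling an adjusted p under 0.05. SE is the moderated standard error. The fit was tested on simulated data. The members, lists, likeness rule and alternatives were chosen with earlier results of these data known. All members are named, with at most 3 genes of each carrier or regulator list by smallest fasting p. Other genes of these lists are named to complete a count or as cluster neighbours. Slc10a1 is an exception, named after its values were seen. The labels state no pairing, so the replicate number was a block only as an alternative. Python 3.11.15 and matplotlib 3.10.9 drew the figures.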

Additional observations from a re-analysis of the deposited data

How the results depend on the processing

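The falls of Slc22a7 and Slco1a1 against fed liver were called, in both fasted groups, under every alternative that gave them a value. Without probe sets shared between transcripts Slc22a7 has no value, which leaves 1 member called in each comparison with fed liver. No alternative called another member, and of 357 values of single members under alternatives 338 kept direction and call. The other 19 changed sign, none of them a called value. With the mean over probe sets the sign turned for Slco1b2 in the fasting comparison (0.021), for Slc22a18 (-0.061), Slco1b2 (-0.13) and Slco2b1 (-0.00098) between genotypes, and for Slco2a1 in Cnot3+/- against fed liver (-0.046). With single arrays left out, the fasting difference of Slco1a4 ran from -0.30 to 0.15. Genotype differences then ran from -0.24 to 0.079 for Slc22a23, -0.52 to 0.14 for Slco1a1, -0.48 to 0.34 for Slco1a4 and -0.025 to 0.25 for Slco2b1. Against fed liver the Cnot3+/- differences ran from -0.56 to 0.26 for Slco1a4, -0.30 to 0.11 for Slco1b2, -0.052 to 0.29 for Slco2a1 and -0.24 to 0.030 for Slco2b1. The number of genes called over the whole table rests on single arrays. For fasting it was 913 with all arrays. It was 458 and 287 when fed replicate 1 or 2 was left out, 137 and 193 when fasted wild-type replicate 1 or 2 was, and 1033 when either Cnot3+/- array was. Between genotypes it was 0 to 2. For Cnot3+/- against fed liver it was 1375 with all arrays, 597 (without fed replicate 2) to 929 with an array left out, and 857 when only these 2 groups were fitted. With the replicate number as a block the counts were 1206, 0 and 1708, and the member calls did not change. Deviations of same-numbered arrays correlated at 0.04 and -0.01 between fed and fasted groups and at 0.45 between the fasted groups. In both fasted groups array 1 read above array 2 for 8 of 8 members, by only 0.005 for Slc22a7 in fasted wild-type liver. The share of all genes with this order was not counted, so it is not shown to be a trait of the members. With the block the genotype adjusted p values of the members were 0.694 to 0.933 (limma). Leaving out an array leaves 1 array in its group, which was assumed to vary like the others; the cause of the drop was not tested beyond that. The 2 arrays per group limit what can be seen: for Slco1a4 the fasting interval spans 0.606-fold to 1.49-fold.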

Other observations

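Slco1b2 read differently between genotypes on a dimmer probe set than on the brightest. That dimmer probe set gave 10.97 and 10.47 in fed wild-type, 10.92 and 11.23 in fasted wild-type, and 9.90 and 10.50 in fasted Cnot3+/- liver. Its genotype difference of -0.88 (SE 0.25) had a limma adjusted p = 0.814 over all probe sets, while the brightest probe set of Slco1b2 differed by 0.24 the other way. For Slco2a1 the second brightest probe set likewise read 9.21 and 9.27 in fasted wild-type and 8.44 and 9.14 in fasted Cnot3+/- liver, a difference of -0.45 (adjusted p = 0.814), with the first Cnot3+/- array lower than the second. Which transcripts these probe sets bind was not tested.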
